A study of Mus musculus with 8 samples.

Results

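The genes of the epidermal growth factor receptor (EGFR) ligands and of the ERBB receptors were followed in tail epidermis of mice with and without a targeted loss of Ppp1r8, the gene of NIPP1, a nuclear regulator of protein phosphatase 1. Members were taken by name: the 7 ligand genes Ereg, Areg, Hbegf, Tgfa, Btc, Epgn and Egf and the 3 receptor genes Egfr, Erbb2 and Erbb3, 10 of the 46983 genes in the count table. All 10 had enough reads to be tested, among 15638 genes tested. The 4 SKO mice had the genotype K14-Cre/+ Ppp1r8 fl/-, with 1 floxed allele beside 1 allele written as minus, and the 4 CTR mice had the genotype K14-Cre/+ Ppp1r8 fl/+, with 1 floxed allele beside 1 wild-type allele. All mice were 8 weeks old, and their strain name joined the transgene Tg(KRT14-cre)1Amc/J with the Ppp1r8 alleles Ppp1r8tm1Ave and Ppp1r8tm1.1Itl. CTR mice thus carried the Cre transgene and a floxed allele too, so where Cre acts their cells keep 1 wild-type allele. The keratin 14 promoter drives Cre in basal keratinocytes and the cells that descend from them, so immune cells and melanocytes of the sheet are not its target. The minus allele of SKO mice does not depend on Cre, so by genotype those cells differed between the groups too. Per the labels' protocols the sheet was separated from dermis after dispase, with no sorting of cells named, and each library came from 1 mouse.

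Ligands of the EGF family are made as membrane-anchored precursors, and metalloproteinases of the ADAM family release the part that binds the receptor. EGFR binds them and pairs with itself or with another ERBB receptor. ERBB2 has no known ligand of its own and acts as a partner, while ERBB3 binds neuregulins and signals mostly through its partner because its kinase is weak. In the epidermis EGFR signalling is known for keeping keratinocytes growing, for restraining their terminal differentiation and for shaping hair follicles.

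The family resemblance lies in 1 small module with 6 cysteines that form its disulfide bonds. Its coding sequence is shown for 6 of the ligands, because this shared stretch is what makes these genes 1 family while their RNA levels below behave differently. The letters were read 5′ to 3′ on the coding strand of GENCODE release M21 transcripts (GRCm38), and capitals mark the codons of the 6 cysteines.
Ereg: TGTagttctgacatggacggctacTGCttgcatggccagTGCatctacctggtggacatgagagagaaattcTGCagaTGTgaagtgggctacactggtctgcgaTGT
Areg: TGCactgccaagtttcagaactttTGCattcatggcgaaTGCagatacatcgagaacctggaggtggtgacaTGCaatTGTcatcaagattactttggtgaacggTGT
Epgn: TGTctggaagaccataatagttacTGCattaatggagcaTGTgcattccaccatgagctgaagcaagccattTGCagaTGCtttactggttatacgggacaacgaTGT
Btc: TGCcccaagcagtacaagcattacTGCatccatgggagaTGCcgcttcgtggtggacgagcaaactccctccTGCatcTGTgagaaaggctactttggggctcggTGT
Tgfa: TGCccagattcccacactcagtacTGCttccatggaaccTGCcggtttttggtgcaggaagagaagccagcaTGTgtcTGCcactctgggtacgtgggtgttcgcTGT
Egf: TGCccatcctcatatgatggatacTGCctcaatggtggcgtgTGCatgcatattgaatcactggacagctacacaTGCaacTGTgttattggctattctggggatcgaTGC
The modules of Ereg, Areg, Epgn, Btc and Tgfa had the same spacing, with 7, 4, 10, 1 and 8 codons between successive cysteines over 36 codons, and that of Egf had 5 codons in the second gap. Between these 5 modules of equal length, 45.4% (Ereg and Tgfa) to 62.0% (Btc and Tgfa) of the 108 bases were identical. The module spans codons 61 to 96 of the 162 coding codons in Ereg, and codons 982 to 1018 of 1217 in Egf, whose precursor is far longer.

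Library totals were 18649079 to 20500885 counts in SKO and 16696212 to 21571935 counts in CTR. The sheet had the markers of its label: Krt5 of basal keratinocytes had 8102 to 8571 CPM (read counts scaled to a common library size and normalised between libraries) in SKO and 7965 to 9356 CPM in CTR, and Krt10 of suprabasal keratinocytes had 27768 to 34872 CPM in SKO and 15097 to 16456 CPM in CTR. Muscle markers summed to at most 0.741 CPM in any SKO library and 0.563 CPM in any CTR library. Gene-level Ppp1r8 counts were 36.4 ± 8.00 CPM in SKO and 37.9 ± 3.58 CPM in CTR (SD, n = 4 each, edgeR adjusted p = 0.789). The count sums all exons, including any that Cre leaves in place, so it does not check the genotypes. Xist, the RNA that silences 1 X chromosome in female cells, was 330.4 to 574 CPM in SKO and 647 to 994 CPM in CTR without overlap. Every library of both groups had it, with 6303 to 20657 counts. Adding log2 CPM of Xist to the model left 77 genes called in place of 3700.

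Of the 10 genes, 2 ligand genes rose (Ereg and Hbegf), 1 receptor gene fell (Erbb2) and 7 were not past the threshold, an adjusted p of 0.05 in edgeR's quasi-likelihood test with Benjamini-Hochberg adjustment over all tested genes. The share called among members was 30.0%, against 23.7% of all tested genes, of which 11.5% were higher and 12.2% lower in SKO, so the share lay near the background. The median log2 fold change of the 10 genes was -0.09, beside 0.00 over all tested genes. SKO and CTR libraries did not overlap for 3 of the 10 genes, the same 3 that were called, while 26.2% of all tested genes had groups without overlap. The labels do not tie mice to litters, so the p-values measure the spread between these mice.

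**Figure D1:**
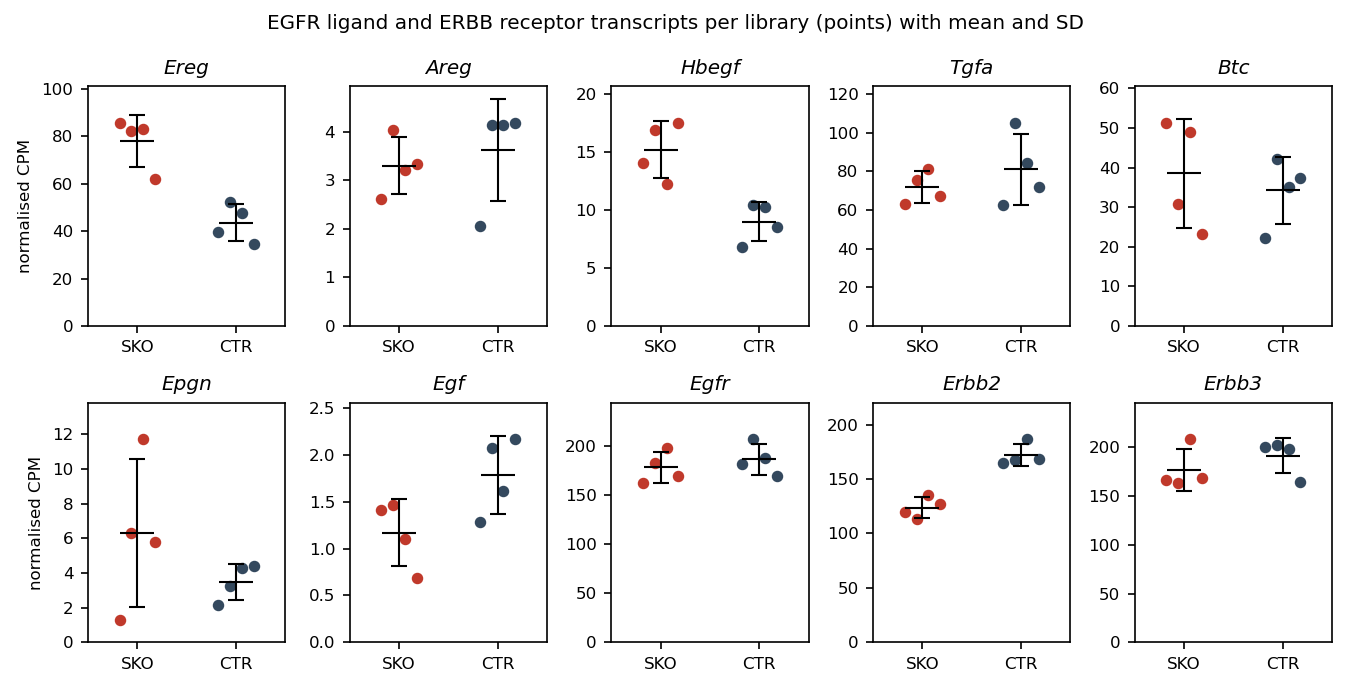
Normalised CPM of each of the 10 genes in 4 SKO (red) and 4 CTR (blue) libraries, with 1 point per library, a horizontal bar at the group mean and error bars of 1 SD. SKO points lie above all CTR points for Ereg and Hbegf and below them for Erbb2, and the groups overlap in the other 7 panels.

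**Figure D2:**
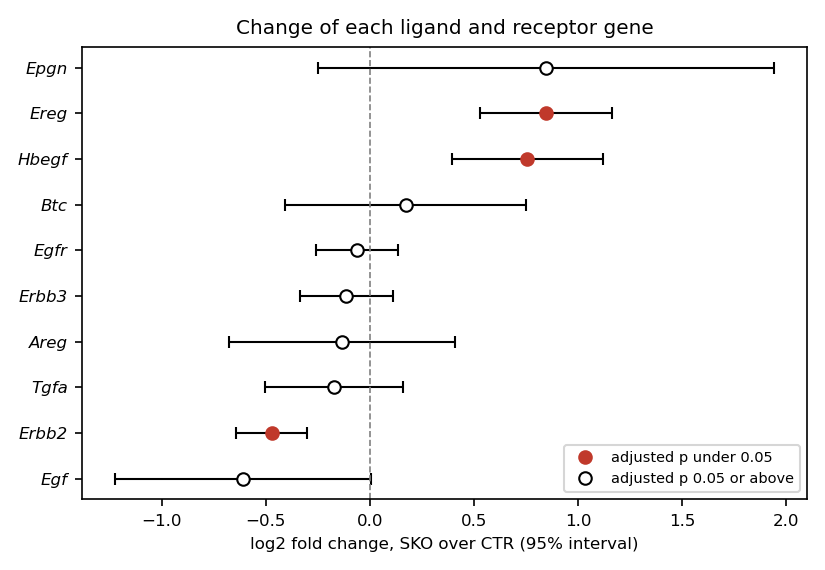
Log2 fold change of SKO over CTR for each gene with its 95% interval from the edgeR fit, with filled points for an adjusted p under 0.05. Intervals of Ereg, Hbegf and Erbb2 lie clear of 0, and Epgn has the widest interval, -0.25 to 1.94.

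Ereg encodes epiregulin, a ligand that binds EGFR and ERBB4, and was the ligand gene with the highest level per length in SKO. It lies on chromosome 5, 91074622 to 91093646, plus strand (GRCm38), with 5 exons. Ereg had 85.9, 82.2, 83.0 and 61.8 CPM in SKO libraries 1 to 4, against 39.8, 52.4, 47.5 and 34.6 CPM in CTR libraries 1 to 4. SKO 4 was the lowest of its group and still above every CTR library. The mean was 78.2 ± 11.04 CPM in SKO and 43.6 ± 7.90 CPM in CTR (SD, n = 4 each). Its log2 fold change was 0.84 (SE 0.14, 95% interval 0.53 to 1.16, edgeR adjusted p = 0.00334), or 1.80-fold. Of its exon sequence, 141 bases are shared with Gm19610 on the other strand, a gene with a mean of 0.958 CPM in SKO and 0.516 CPM in CTR, and no source used here gives the strand setting of the counting.

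Hbegf encodes heparin-binding EGF-like growth factor, which keratinocytes release during wound closure, and it was the other ligand gene that rose. The gene lies on chromosome 18, 36504927 to 36515805, minus strand (GRCm38). Hbegf had 14.05, 16.9, 12.3 and 17.5 CPM in SKO libraries 1 to 4, against 6.81, 10.4, 10.2 and 8.52 CPM in CTR libraries 1 to 4. The groups came close, with SKO 3 just above CTR 2, but did not overlap. Means were 15.2 ± 2.46 CPM in SKO and 8.996 ± 1.69 CPM in CTR (SD, n = 4 each), and the log2 fold change was 0.76 (SE 0.16, 95% interval 0.39 to 1.12, edgeR adjusted p = 0.00984), or 1.69-fold.

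Marker lists of other cell states moved with both ligands. All 6 listed markers of stressed keratinocytes rose (summed level 5661 to 6371 CPM in SKO and 2687 to 3363 CPM in CTR), and 5 of 6 Langerhans and dendritic cell markers rose (167 to 252 CPM in SKO and 86.1 to 136 CPM in CTR). Of 4 tested T cell markers 3 rose and 1 fell (25.1 to 32.4 CPM in SKO and 20.5 to 31.3 CPM in CTR). The most abundant markers were Krt17 (log2 fold change 0.83, edgeR adjusted p = 0.00109), Cd74 (0.87, adjusted p = 0.00545) and Thy1, the T cell marker that fell (-0.79, adjusted p = 0.00983). Of 7 suprabasal keratinocyte markers 4 rose and 0 fell (45965 to 63409 CPM in SKO and 21055 to 24470 CPM in CTR), and of 5 melanocyte markers 4 rose and 0 fell (295 to 512 CPM in SKO and 202 to 311 CPM in CTR). Of 6 sebaceous gland markers 3 rose and 0 fell (5871 to 8157.5 CPM in SKO and 3644 to 4985 CPM in CTR). Of 6 macrophage and monocyte markers 2 had enough reads to be tested and 0 were called (17.2 to 21.3 CPM in SKO and 12.9 to 18.1 CPM in CTR). Their summed levels thus overlapped, and their mean log2 CPM, used below, includes the markers too low to test. Beside these counts, 11.5% of all tested genes were higher and 12.2% lower in SKO. Mean log2 CPM of the stressed, Langerhans and dendritic, T cell, suprabasal and macrophage lists was higher in every SKO library than in every CTR library. For each of these lists the two-sided exact permutation p was 0.0286, the smallest possible with 4 against 4 (adjusted p = 0.0571 over 14 measures). The lists were chosen with earlier results of these data known, so these p-values are not independent support for a change. The melanocyte and sebaceous lists overlapped between groups (exact permutation p = 0.0571 and 0.2). Their part in the rise of Ereg and Hbegf was not tested. In such bulk samples, more cells of a type and more RNA per cell cannot be told apart.

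Tgfa encodes transforming growth factor alpha, a ligand of EGFR needed for straight hair and whiskers in mice, and lies on chromosome 6, 86195223 to 86275719, plus strand (GRCm38). It had 63.0, 75.7, 81.4 and 67.3 CPM in SKO libraries 1 to 4, against 62.7, 105, 84.2 and 72.0 CPM in CTR libraries 1 to 4. The groups overlapped almost fully, and CTR 2 was the highest library. Tgfa had a log2 fold change of -0.17 (SE 0.15, 95% interval -0.50 to 0.16, edgeR adjusted p = 0.423).

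Btc encodes betacellulin, which binds EGFR and ERBB4, and lies on chromosome 5, 91357261 to 91402994, minus strand (GRCm38). Btc had 51.4, 30.7, 48.9 and 23.1 CPM in SKO libraries 1 to 4, against 22.2, 42.2, 35.1 and 37.3 CPM in CTR libraries 1 to 4. SKO 1 and SKO 3 lay above all CTR libraries, while SKO 2 and SKO 4 lay within the CTR range. Btc had a log2 fold change of 0.17 (SE 0.26, 95% interval -0.41 to 0.75, edgeR adjusted p = 0.663). The coefficient of variation was 35.8% in SKO and 24.9% in CTR, where counting error alone gives 3.81% in SKO and 3.98% in CTR.

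Epgn encodes epigen, a weakly binding EGFR ligand, and had the widest spread of the 10 genes. It lies on chromosome 5, 91027464 to 91035215, plus strand (GRCm38). Epgn had 1.31, 6.32, 11.7 and 5.77 CPM in SKO libraries 1 to 4, against 2.15, 3.22, 4.27 and 4.38 CPM in CTR libraries 1 to 4. SKO 1 was below every CTR library and the other 3 SKO libraries were above all of them. The highest SKO library had 8.94 times the lowest, against 2.04 times within CTR. The log2 fold change was 0.85 (SE 0.49, 95% interval -0.25 to 1.94, edgeR adjusted p = 0.238), about the size seen for Ereg but not past the threshold. Without SKO 1 it was 1.19 (adjusted p = 0.0216). In SKO libraries 1 to 4 the hair shaft and inner root sheath markers summed to 238, 2520, 3404 and 727 CPM. SKO 1 was lowest, then SKO 4, SKO 2 and SKO 3, the same order as for Epgn. In CTR libraries 1 to 4 these markers summed to 5940, 11376, 11184 and 8117 CPM, an order other than that of Epgn, and between the groups they were lower in SKO while mean Epgn was higher. Tchh, the most abundant of these markers, fell by 2.27 on the log2 scale (edgeR adjusted p = 0.0275). The Tchh call ended without SKO 4 (0.0668), CTR 2 (0.0598) or CTR 3 (0.0617) and with a robust fit (0.0916). With log2 CPM of Xist in the model, the log2 fold change of Tchh was -0.08 (adjusted p = 0.969). The part of hair follicle content in the Epgn values was not tested.

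Areg encodes amphiregulin, an EGFR ligand also made by some T cells, and lies on chromosome 5, 91139599 to 91148432, plus strand (GRCm38). Areg had 2.62, 4.05, 3.21 and 3.34 CPM in SKO libraries 1 to 4, against 2.05, 4.14, 4.15 and 4.19 CPM in CTR libraries 1 to 4, from 40 to 89 counts per library. CTR 1 lay below all other libraries of both groups. The log2 fold change was -0.14 (SE 0.24, 95% interval -0.68 to 0.41, edgeR adjusted p = 0.719). The interval runs up to 1.33-fold higher in SKO.

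Egf, the gene of the founding ligand, was the least abundant, with 13 to 46 counts per library. It lies on chromosome 3, 129677565 to 129755316, minus strand (GRCm38), and shares 1107 exon bases with Gm42697 and 6330410L21Rik on the other strand, both at 0 counts in all libraries. Egf had 1.42, 1.47, 1.102 and 0.688 CPM in SKO libraries 1 to 4, against 1.28, 2.07, 1.61 and 2.165 CPM in CTR libraries 1 to 4. CTR 1 lay among the SKO libraries, and the other 3 CTR libraries lay above all of them. The log2 fold change was -0.61 (SE 0.28, 95% interval -1.22 to 0.01, edgeR adjusted p = 0.136). Counting error alone gives a coefficient of variation of 21.7% in SKO and 17.4% in CTR, so a difference well under that size was not detectable at this depth.

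Among the receptors, Erbb2 fell, the partner receptor without a ligand of its own. The gene lies on chromosome 11, 98412470 to 98437716, plus strand (GRCm38). Erbb2 had 119, 113, 136 and 127 CPM in SKO libraries 1 to 4, against 165, 167, 187 and 168 CPM in CTR libraries 1 to 4. All SKO libraries lay below all CTR libraries, and their coefficients of variation, 7.74% in SKO and 5.82% in CTR, were the lowest of the 10 genes. The mean was 124 ± 9.58 CPM in SKO and 172 ± 10.00 CPM in CTR (SD, n = 4 each), and the log2 fold change was -0.47 (SE 0.08, 95% interval -0.64 to -0.30, edgeR adjusted p = 0.00285), or 1.39-fold lower. Of 6 basal keratinocyte markers 4 fell and 0 rose (16219 to 16968 CPM in SKO and 17048 to 19179 CPM in CTR). Krt5, the most abundant of these, had a log2 fold change of -0.08 (edgeR adjusted p = 0.552). That of Krt14 was 0.10 (adjusted p = 0.485), so neither was called. Of 9 hair shaft and inner root sheath markers 8 fell and 0 rose (238 to 3404 CPM in SKO and 5940 to 11376 CPM in CTR). Beside these marker counts, 12.2% of all tested genes were lower in SKO. The part of either list in the Erbb2 fall was not tested.

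Egfr, the receptor of all 7 ligands, lies on chromosome 11, 16752203 to 16918158, plus strand (GRCm38). It had 162.5, 183, 198 and 169.6 CPM in SKO libraries 1 to 4, against 182, 207, 188 and 169 CPM in CTR libraries 1 to 4. The groups overlapped over most of their range. With 3031 to 4303 counts per library the log2 fold change was -0.06 (SE 0.09, 95% interval -0.26 to 0.13, edgeR adjusted p = 0.631). As folds of SKO over CTR, the interval spans 0.836 to 1.096.

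Erbb3, the neuregulin receptor with a weak kinase, lies on chromosome 10, 128567523 to 128589652, minus strand (GRCm38). It had 166, 163, 208 and 168 CPM in SKO libraries 1 to 4, against 199.5, 202, 198 and 164 CPM in CTR libraries 1 to 4. In each group 1 library stood apart, SKO 3 on the high side and CTR 4 on the low side. Erbb3 had a log2 fold change of -0.11 (SE 0.10, 95% interval -0.34 to 0.11, edgeR adjusted p = 0.434). Erbb4, the remaining receptor of the family and not among the 10 genes, had 1 to 6 counts per library and was too low to test.

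Levels of different genes were compared per length, as normalised CPM per kb of merged exon sequence. In SKO the order of mean levels was Erbb3 (29.3 CPM per kb), Erbb2 (23.8), Ereg (19.0), Egfr (15.7), Tgfa (11.1), Btc (8.53), Epgn (3.48), Hbegf (3.14), Areg (2.72) and Egf (0.104). In CTR it was Erbb2 (33.0 CPM per kb), Erbb3 (31.7), Egfr (16.5), Tgfa (12.5), Ereg (10.6), Btc (7.57), Areg (2.99), Epgn (1.94), Hbegf (1.86) and Egf (0.158). Library ranges of Erbb3 and Erbb2 were apart in SKO (27.2 to 34.6 and 21.8 to 26.0 CPM per kb) but overlapped in CTR (27.3 to 33.5 and 31.7 to 35.8 CPM per kb). Ereg overlapped Egfr in SKO (15.0 to 20.8 and 14.3 to 17.5 CPM per kb), while in CTR it overlapped Tgfa (8.39 to 12.7 and 9.66 to 16.2 CPM per kb). Neighbours in the order whose library ranges also overlapped were Tgfa and Btc, Btc and Epgn, Epgn and Hbegf, and Hbegf and Areg in SKO, and Egfr and Tgfa, Ereg and Btc, Areg and Epgn, and Epgn and Hbegf in CTR. Egf lay below the other genes in every library. With the length of the longest transcript in place of merged exons, 5 of the 10 genes kept their place in the order of the mean over all libraries, and Tgfa (15.9 CPM per kb in SKO and 17.9 CPM per kb in CTR) stood above Ereg in that mean.

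**Figure D3:**
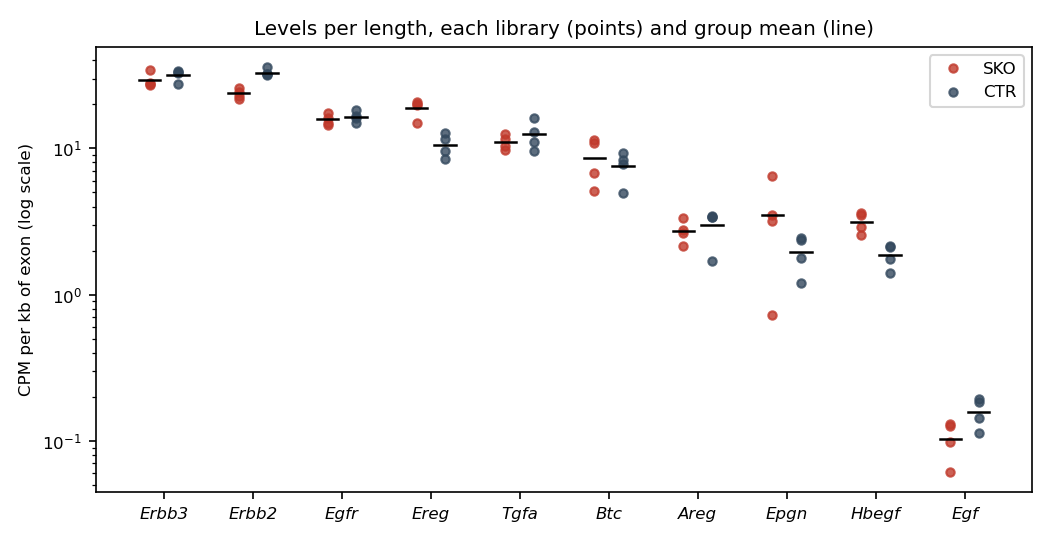
Levels in normalised CPM per kb of merged exon, on a log axis, with 1 point per library and a line at each group mean, SKO (red) left of CTR (blue) for each gene. Erbb3 and Erbb2 stand at the top in both groups, and Ereg, at 19.0 CPM per kb in SKO and 10.6 in CTR, lies above Egfr in the mean of SKO and below it in the mean of CTR.

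The make-up of the ligand pool, as shares of the 7 ligand genes summed per length, is given as a description with no test. Ereg made up 36.4% to 43.5% of the sum in SKO libraries and 23.6% to 33.7% in CTR libraries. Tgfa made up 20.3% to 25.9% in SKO and 31.2% to 35.4% in CTR. Thus Ereg was the largest part in all SKO libraries, while Tgfa was ahead of it in all 4 CTR libraries, in CTR 1 by 33.8% to 33.7%. These shares rest on merged-exon lengths. The summed ligand level was 48.0 ± 6.21 CPM per kb in SKO and 37.6 ± 7.28 CPM per kb in CTR (SD, n = 4 each), and the ranges, 40.1 to 55.2 in SKO and 28.6 to 45.8 in CTR, overlapped. Among the 3 receptor genes, Erbb2 made up 33.3% to 36.2% of the sum in SKO and 38.2% to 43.3% in CTR.

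Epgn, Ereg, Areg and Btc lie beside each other on chromosome 5, within 376 kb (91027464 to 91402994, GRCm38). Epgn and Ereg had log2 fold changes of 0.85 and 0.84, and Areg and Btc, farther along, -0.14 and 0.17, with only Ereg past the threshold. Differences between the 4 genes were not tested, and the 95% interval of Epgn, -0.25 to 1.94, covers the values of Areg and Btc. Of 30 other annotated genes in the table within 500 kb of this stretch, 6 were tested, and 2 of them rose and 0 fell, beside 11.5% of all tested genes higher and 12.2% lower. With so few tested, nothing is read from that count. Mthfd2l, a mitochondrial folate enzyme gene next to Epgn, had 20.3, 17.9, 18.1 and 22.8 CPM in SKO libraries 1 to 4, against 12.3, 12.7, 10.6 and 11.4 CPM in CTR libraries 1 to 4, without overlap. Its log2 fold change was 0.75 (SE 0.11, edgeR adjusted p = 0.00177), close to that of Ereg. Cxcl1, a neutrophil-attracting chemokine gene, rose by 2.84 on the log2 scale (SE 0.54, edgeR adjusted p = 0.00563). Gm19610, which overlaps Ereg, had a log2 fold change of 0.89 and was not past the threshold (adjusted p = 0.125).

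**Figure D4:**
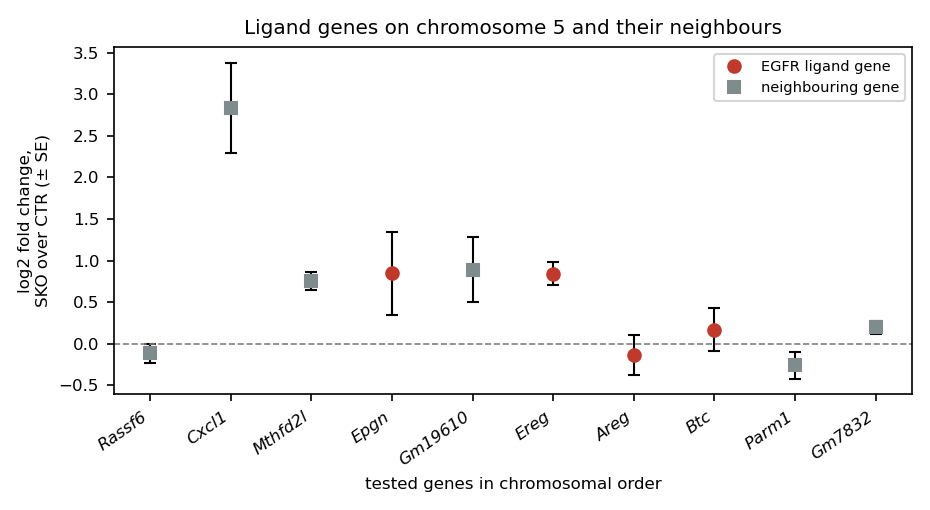
Log2 fold change of SKO over CTR, with error bars of 1 SE, for the 4 ligand genes (red circles) and the 6 tested neighbours (grey squares) in their order on chromosome 5. The values of Mthfd2l, Epgn, Gm19610 and Ereg lie between 0.75 and 0.89. Those of Areg, Btc, Parm1 and Gm7832 on the far side lie between -0.26 and 0.20. On the near side Rassf6 lies at -0.11 and Cxcl1 at 2.84. Only Cxcl1, Mthfd2l and Ereg were past the threshold.

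Genes that work around the receptors were counted in 6 lists of 99 tested genes, of which 14 rose, 7 fell and 78 were not past the threshold. That is 21.2% called, below the 23.7% of all tested genes, with 14.1% higher and 7.07% lower in SKO beside 11.5% and 12.2% of all tested genes. Among 15 tested genes for shedding and handling of ligands, 1 rose and 2 fell, with a median log2 fold change of -0.06. Bace2, a membrane protease gene, rose to 25.6 ± 2.70 CPM in SKO, against 16.2 ± 1.32 CPM in CTR (SD, n = 4 each, log2 fold change 0.67, edgeR adjusted p = 0.00215). Timp3, which encodes an inhibitor of the sheddase ADAM17, fell by 0.60 on the log2 scale (adjusted p = 0.0313) and Adam9 by 0.22 (adjusted p = 0.0209). The Timp3 call ended without SKO 4, CTR 1, CTR 2 or CTR 3 (adjusted p = 0.0532 to 0.0820), and the Adam9 call without SKO 1, SKO 4, CTR 2 or CTR 3 (0.0536 to 0.0685) and with no count filter (0.0749).

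Of 20 genes that restrain or degrade receptors, 2 rose and 1 fell, with a median log2 fold change of -0.11. Ptpn2, a tyrosine phosphatase gene, rose by 0.43 on the log2 scale (edgeR adjusted p = 0.0162). The sorting complex that sends marked receptors to lysosomes showed both directions: Hgs rose by 0.32 (adjusted p = 0.00954) and its partner gene Stam fell by 0.38 (adjusted p = 0.0168, or 0.0510 without SKO 2 and 0.0506 without SKO 4). Of 29 tested adaptors and proximal effectors, 5 rose, Vav3 and Gab2 among them, and 2 fell, with a median of 0.05. Pik3r1, a regulatory subunit gene of PI3-kinase, had 129 ± 8.35 CPM in SKO and 213 ± 41.9 CPM in CTR (SD, n = 4 each, log2 fold change -0.73, adjusted p = 0.00415). The kinase gene Braf fell by 0.50 (adjusted p = 0.0207). Vav3, an exchange factor gene, and the adaptor gene Gab2 rose by 0.44 and 0.35 (adjusted p = 0.0198 and 0.0394). The Braf call ended without SKO 2, SKO 4 or CTR 2 (0.0505 to 0.0570), and the Vav3 call without CTR 2 or CTR 3 (0.0523 and 0.0540). That of Gab2 ended without any library but SKO 3 or CTR 4 (0.0539 to 0.106) and with no count filter (0.0628), and it ended with mice paired by animal number (0.0529).

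Among 10 genes for feedback on the ERK kinases, 1 rose and 2 fell. Dusp4, a nuclear ERK phosphatase gene, rose to 18.6 ± 2.88 CPM in SKO, against 10.5 ± 1.91 CPM in CTR (SD, n = 4 each, log2 fold change 0.82, edgeR adjusted p = 0.00541). Dusp5, another nuclear ERK phosphatase gene, fell by 0.35 (adjusted p = 0.0320) and Spred2, an inhibitor gene of the Ras pathway, by 0.32 (adjusted p = 0.0391). These falls ended without SKO 1, SKO 4, CTR 1, CTR 2 or CTR 3 (0.0575 to 0.0860 for Dusp5), for Spred2 also without SKO 2 (0.0570 to 0.103 over the 6) and with no count filter (0.0517). Of 22 tested genes that EGFR signalling is known to induce in keratinocytes, 5 rose (Krt16, Mmp9, Ier3, Krt6a and Myc) and 0 fell. The median log2 fold change was 0.09. That is 22.7% called, all higher, beside 23.7% of all tested genes, with 11.5% higher and 12.2% lower. The list was chosen with earlier results of these data known. Krt16, a keratin of stressed epidermis, had 897 ± 147 CPM in SKO and 219 ± 56.9 CPM in CTR (SD, n = 4 each, log2 fold change 2.03, adjusted p = 0.000235). Mmp9 rose by 2.11, Ier3 by 0.75 and Krt6a by 0.59 (adjusted p = 0.00111, 0.00511 and 0.0191), the last not past the threshold without CTR 1 or CTR 3 (0.0569 and 0.0557). Krt16 and Krt6a also stand in the list of stressed keratinocyte markers. Of the 3 tested neuregulin genes, 0 were called by edgeR, DESeq2 or limma-voom, and 1 (Nrg2) had an unadjusted p under 0.05. Nrg4 had 9.19 ± 3.09 CPM in SKO and 10.2 ± 1.42 CPM in CTR, and Nrg1 had 6.04 ± 1.68 CPM in SKO and 5.43 ± 1.35 CPM in CTR (SD, n = 4 each).

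**Figure D5:**
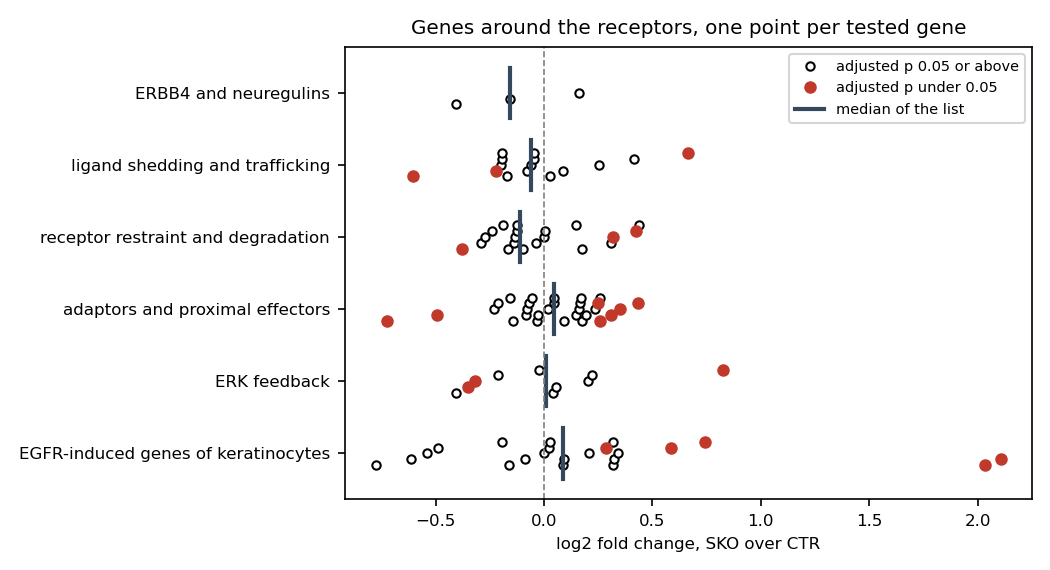
Log2 fold change of SKO over CTR for every tested gene of the 6 lists, 1 point per gene, filled where the adjusted p was under 0.05, with a bar at each list's median. Medians lie between -0.16 and 0.09, and filled points stand on both sides of 0 in 4 of the 6 lists.

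The genes whose library-to-library pattern was nearest to each called member were found among 12440 genes of at least 1 CPM, by the root mean square difference of log2 CPM over the 8 libraries after centring each gene. For Ereg these were Anxa3 (0.120), Ifih1 (0.133) and Cytip (0.135), and for Hbegf they were Steap4 (0.125), Dync2li1 (0.130) and Adtrp (0.133). For Erbb2 they were closer, Dusp14 (0.0451), Cerk (0.0473) and Ints11 (0.0659).

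When log2 CPM of Xist was added to the model, 0 of the 10 genes were called, beside 0.492% of all tested genes. The log2 fold changes were then 1.29 for Ereg (edgeR adjusted p = 0.0524), 0.76 for Hbegf (0.266) and -0.37 for Erbb2 (0.203). Xist levels of the groups did not overlap, so group and Xist level cannot be told apart well in these 8 libraries. Without any single library, and under the other normalizations, filters and tools tried, the calls of Ereg, Hbegf and Erbb2 remained, with adjusted p up to 0.0126 for Ereg, 0.0285 for Hbegf and 0.00995 for Erbb2. The background moved more: the share of all tested genes called was 18.9%, 17.8%, 27.6% and 16.3% without SKO 1 to SKO 4, and 17.5%, 16.6%, 16.9% and 20.7% without CTR 1 to CTR 4. It was 23.7% with DESeq2's size factors, 24.1% with upper-quartile factors, 23.6% with library totals only and with a robust fit, 24.0% with limma-voom and 27.5% with DESeq2. It was 27.6% with mice paired by neighbouring animal numbers, 13.6% with no count filter and 24.8% with the stricter one.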

How the data were processed

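RNA of tail epidermis from 8 mice (4 SKO, 4 CTR) was sequenced as single reads of 75 bp from stranded poly-A libraries, per the labels' protocols. The table deposited by the authors holds raw counts of reads for each Ensembl gene. The submitters' processing notes name STAR 2.4.1d, featureCounts 1.4.6 and edgeR 3.8.6 among the tools and GRCm38 as the build. No source used here gives the annotation release, the strand setting or the treatment of multiply matching reads.

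Symbols, positions and lengths came from GENCODE mouse release M21 (46488 of 46983 identifiers found). The test was that of edgeR 4.0.16 under R 4.3.3 (quasi-likelihood, TMM, filterByExpr, group as the only term, two-sided, Benjamini-Hochberg over 15638 genes). Intervals use the test's own degrees of freedom. CPM values use TMM-adjusted library sizes, where 3 counts are 0.141 to 0.186 CPM, covering counting error only. The fit was tested on simulated data. In a check for a library present more than once, none of the 12 replicate pairs agreed within sampling noise. Titles carry animal numbers, and each SKO mouse has a CTR mouse with a neighbouring number. Deviations from the group means correlated at 0.152 to 0.400 across genes in these 4 pairs, so a fit with the pair as a block was added after seeing the data. In the other pairings of an SKO with a CTR mouse the correlation was -0.265 to 0.162. SKO 3 correlated slightly more with CTR 2 (0.162) than with its neighbour by number, CTR 3 (0.152). The labels do not say what the numbers share. Marker lists were compared by exact permutation.

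Named genes were all members, up to 4 called genes of each list with the largest change at 1 CPM or more (2 most abundant where fewer than 2 were called), and 3 nearest patterns per called member. Of the marker lists, the most abundant marker was named for the basal, suprabasal and stressed keratinocyte, Langerhans and dendritic, T cell and hair lists. The melanocyte and sebaceous lists, whose mean log2 CPM overlapped between groups, were left without one. Gm19610, Parm1, Gm7832, Rassf6, Krt14, Mien1, Nrg2 and Myc were named after their values were seen. The members and lists were chosen with earlier results of these data known. Alternatives were RLE, upper-quartile or no factors, other filters, DESeq2 1.42.0, limma-voom 3.58.1, a robust fit, Xist as a term and leaving out each library.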

Additional observations from a re-analysis of the deposited data

Results flagged for a closer look

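In 5 of 20 groups of 4 libraries 1 library stood far from the other 3 (chance flags about 1 in 20 groups). These were Ereg in SKO 4 at 61.8 CPM, the lowest of SKO, Areg in CTR 1 at 2.05 CPM, the lowest of CTR, and Erbb2 in CTR 3 at 187 CPM, the highest of CTR. Erbb3 had such a library in both groups, SKO 3 at 208 CPM, the highest of SKO, and CTR 4 at 164 CPM, the lowest of CTR. Without SKO 4 the log2 fold change of Ereg was 0.94, and without CTR 3 that of Erbb2 was -0.43.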

How the results depend on the processing

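With Xist as a further term 77 genes were called, 0 members rose, 0 members fell, 1 gene of the 6 lists rose and 0 fell, and 0 chromosome 5 neighbours were called. Log2 fold changes were then 1.29 for Ereg, 0.76 for Hbegf, -0.37 for Erbb2, 0.18 for Areg, 0.45 for Tgfa, 0.28 for Egfr, 0.22 for Erbb3, 0.24 for Nrg4, 0.079 for Timp3, 0.021 for Braf and 0.057 for Dusp5, and the cause was not tested. Without single libraries 2589 to 4370 genes were called, 2 to 3 members rose and 1 fell, and in the lists 10 to 14 genes rose and 1 to 10 fell (1 without SKO 4, 2 without CTR 2, 3 without CTR 3, 4 without SKO 2 or CTR 1). The log2 fold change of Epgn was then 0.35 to 1.19, past the threshold without SKO 1, that of Nrg4 -0.28 to 0.065 (above 0 without SKO 1) and that of Ppp1r8 -0.21 to 0.048 (above 0 without SKO 2). Neighbours called were 4 with no count filter and 1 with the stricter filter. With longest transcripts 5 genes kept their rank. Of 14 marker and depth measures 0 were past the threshold. Without SKO 4 the count was 8, but their exact permutation adjusted p lay at the threshold of 0.05 itself. Nothing is read from that count. Egf was not tested under the stricter filter. Of 538 further values for 30 other named genes, 469 kept direction and side of the threshold. Another 63 lost the call but kept the sign, and 6 changed sign. Of the latter, those of Timp3, Braf and Dusp5, all with Xist as a term, lost the call too. Counting error alone gave Egf a coefficient of variation of 21.7% in SKO and 17.4% in CTR, the highest of the 10 genes. With a replicate block for mice of neighbouring animal numbers, chosen after seeing the data, 4313 genes were called, 2 members rose and 1 fell, and Ereg (0.85), Hbegf (0.76) and Erbb2 (-0.47) stayed called. The block ended the call of Gab2 and of no other named gene in the fits.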

Other observations

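Mien1, which shares 9 exon bases with Erbb2 on the other strand, had 72.2, 61.2, 59.4 and 61.2 CPM in SKO libraries 1 to 4, against 38.3, 37.2, 43.2 and 51.2 CPM in CTR libraries 1 to 4. It rose by 0.58 on the log2 scale (edgeR adjusted p = 0.00582) while Erbb2 fell by 0.47, and it was chosen after its values were seen.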
